A study of Mus musculus with 4 samples.

Results

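In subcutaneous adipose tissue (SAT), lymphocytes carrying RNA of the cell cycle numbered 194, among 4738 SAT cells and 8986 cells in the whole series. They were chosen cell by cell from counts of unique molecular identifiers (UMIs), each of which stands for 1 captured RNA molecule. A cell with 200 or more genes entered when it held at least 1 UMI of the B cell receptor genes Cd79a and Cd79b or of the T cell receptor genes Cd3d, Cd3e and Cd3g, and at least 1 UMI of Mki67 or Top2a. Cells with more than 1 UMI of the myeloid gene Lyz2, any UMI of the stromal gene Dcn, or more than 1 UMI of the endothelial genes Pecam1 and Cdh5 were left out. The control library held 111 such cells among 1418 lymphocytes, and the D-CAN library held 83 among 1325. With 2 or more Cd79a and Cd79b UMIs and no Cd3 UMI, 38 control and 23 D-CAN cells were B cells. With a Cd3 UMI and at most 1 Cd79 UMI, 61 and 54 were T cells, and 12 and 6 cells met neither definition. The cells that met the lineage definitions without an Mki67 or Top2a UMI are called noncycling here, and numbered 538 and 544 B cells and 647 and 648 T cells.

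Both libraries were prepared from the stromal/vascular fraction of SAT of mice whose genotype is labelled VFB, described in the study as chow-fed FVB mice with a subcutaneous graft of MycCaP, a mouse prostate cancer line. The control animals received PBS, and the others received D-CAN under the skin, a peptide that homes to adipose stromal cells (ASC) joined to an amphipathic sequence. Age and sex of the animals are not in the labels, dead cells and red cells were removed before capture, and whether a library pools several mice is not stated. There was 1 library per condition, so no test between conditions was possible, and every interval below is a 95% interval for counting error in these cells or molecules only. The control library held 6667064 UMIs in 2851 deposited cells, and the D-CAN library 7444729 UMIs in 1922 cells, with medians of 1700 and 2920.5 UMIs per cell. The libraries shared 2 cell barcodes, none of them from a cycling lymphocyte in both.

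Resting lymphocytes divide after antigen, costimulation and cytokines bring them out of quiescence. During S phase a cell copies its DNA with the MCM helicase, the sliding clamp PCNA and a supply of deoxynucleotides, and then builds the proteins of chromosome condensation, the spindle and cytokinesis for mitosis. Mki67 encodes Ki-67, which coats mitotic chromosomes, Top2a encodes the topoisomerase that untangles replicated DNA, and Pclaf encodes a PCNA partner used in DNA synthesis. B cells divide fastest in the germinal centre, where antibody genes are mutated, and some then leave as antibody-secreting plasmablasts. In adipose tissue, regulatory T cells marked by Foxp3 are known to divide and to restrain inflammation. In assembly GRCm38, Mki67 lies at chr7:135689784-135716361 on the minus strand, Top2a at chr11:98992943-99024189 on the minus strand, Pclaf at chr9:65890237-65903266 on the plus strand and Cd79a at chr7:24897381-24902197 on the plus strand.

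The promoters of the genes that accompany Mki67 and Top2a in these cells often hold short recurring motifs, and 9 promoters that hold at least 1 of them in the 100 bases shown were picked as examples. Other listed genes, such as Birc5 and Tyms, hold none in these 100 bases, and the gene lists below were not built from motifs. Sequences are the 100 bases before the transcript start in RefSeq, assembly GRCm38.p6, on the strand of the gene. Capitals mark TTTGAA, the core of the cell cycle homology region to which the MuvB complex binds, CCAAT, the site of NF-Y, and the E2F forms TTTGGCGC, TTTCGCGC and TTTCCCGC, each read on either strand so that TTCAAA and ATTGG count as matches. The first 5 genes act in mitosis or chromosome structure, and the last 4 are in the list of DNA replication genes used below.
Top2a, chr11:99024190-99024289, minus strand: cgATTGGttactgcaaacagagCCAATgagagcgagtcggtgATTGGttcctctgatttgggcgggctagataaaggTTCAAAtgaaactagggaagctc
Cdk1, chr10:69352913-69353012, minus strand: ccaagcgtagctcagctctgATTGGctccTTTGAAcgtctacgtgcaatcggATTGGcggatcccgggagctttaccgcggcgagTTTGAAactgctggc
Cdc20, chr4:118437344-118437443, minus strand: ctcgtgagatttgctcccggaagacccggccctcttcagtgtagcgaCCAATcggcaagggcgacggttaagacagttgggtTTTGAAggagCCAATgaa
Cks1b, chr3:89418292-89418391, minus strand: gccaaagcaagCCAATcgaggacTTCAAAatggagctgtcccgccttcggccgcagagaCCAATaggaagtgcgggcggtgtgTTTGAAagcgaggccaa
Hmgb2, chr8:57511743-57511842, plus strand: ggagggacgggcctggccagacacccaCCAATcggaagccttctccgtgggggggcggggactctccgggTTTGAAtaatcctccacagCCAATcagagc
Mcm6, chr1:128359706-128359805, minus strand: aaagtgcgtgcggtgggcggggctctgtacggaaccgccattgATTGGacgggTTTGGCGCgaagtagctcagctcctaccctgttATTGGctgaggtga
Dtl, chr1:191575545-191575644, minus strand: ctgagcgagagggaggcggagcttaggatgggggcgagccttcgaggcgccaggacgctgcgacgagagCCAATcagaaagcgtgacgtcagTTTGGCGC
Hells, chr19:38930890-38930989, plus strand: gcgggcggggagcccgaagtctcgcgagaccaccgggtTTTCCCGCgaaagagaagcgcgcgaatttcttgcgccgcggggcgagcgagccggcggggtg
Pclaf, chr9:65890223-65890322, plus strand: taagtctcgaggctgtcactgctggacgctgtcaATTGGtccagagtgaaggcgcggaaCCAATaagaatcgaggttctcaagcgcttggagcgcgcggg

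Over windows from 250 bases before to 50 bases after the start, TTTGAA was present in 31 of 47 matched promoters of a list of 55 mitosis genes (66.0%) and in 5 of 34 matched promoters of a list of 46 replication genes (14.7%). Among all 27025 promoters in the table, 18.1% held it, and among the 4375 matched promoters of genes measured in B cells, 11.3%. The E2F forms showed the opposite split, with 2 of 47 mitosis promoters (4.26%) and 14 of 34 replication promoters (41.2%). They were in 1.91% of all promoters and in 4.27% of those of genes measured in B cells. CCAAT was in 76.6% of the mitosis and 73.5% of the replication promoters and in 37.9% of all promoters, so it did not separate the lists. TTTGAA and CCAAT together were in 25 of 47 mitosis promoters (53.2%), in 4 of 34 replication promoters (11.8%) and in 7.12% of all. A match describes the letters of the window only.

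Lineage markers that the rule did not use were present in the cells. Leaving out Cd79a and Cd79b, all 6 other B cell markers were detected in cycling B cells, with a summed level of 1866 CPM (UMIs scaled to a common total of the class) in the control and 1578 CPM in the D-CAN library, against 3173 and 2840 CPM in noncycling B cells. The 7 T cell markers other than the Cd3 genes summed to 3552 and 3511 CPM in cycling T cells, and to 3183 and 3441 CPM in noncycling T cells. In cycling B cells these 7 came to 95.9 and 49.5 CPM, with Trac detected in neither library. Pclaf, a label marker that the rule did not use, was detected in 18 of 38 control and 7 of 23 D-CAN cycling B cells and in 16 of 61 and 12 of 54 cycling T cells, against 6 of 538, 1 of 544, 13 of 647 and 5 of 648 noncycling cells. In cycling T cells the 6 B cell markers came to 207 and 150 CPM, of which Cd37 made 185 and 150 CPM, with Pax5 at 0. Other cell types were also scored without the genes that the rule limited. Macrophage markers were at 14.7 and 18.6 CPM in cycling B and 4.40 and 8.82 CPM in cycling T cells, and stromal markers at 14.7 and 0 CPM and at 17.6 and 11.8 CPM. Endothelial markers came to 0 and 6.19 CPM in cycling B and 4.40 and 11.8 CPM in cycling T cells. For vessels of lymph nodes 3 markers were scored, Glycam1, Madcam1 and Ccl21a. They came to 0 and 6.19 CPM in cycling B and 4.40 and 5.88 CPM in cycling T cells. Noncycling B cells had 3.47 and 6.57 CPM of them, and noncycling T cells 42.2 and 8.67 CPM. Whether the SAT held lymph node tissue was not tested. NK cell markers were at 57.1 and 32.3 CPM and epithelial markers at 22.0 and 20.6 CPM in cycling T cells, and neutrophil markers were not detected in cycling B cells. Of 9 lymphocyte precursor markers, 3 were detected in control cycling B cells with 4 UMIs in all (14.7 CPM, against 9.55 CPM in noncycling B cells), of which Igll1 had 2 UMIs and none in noncycling B cells. D-CAN cycling B cells held 1 UMI of Cd34 and control cycling T cells 1 of Dntt, and Rag1 and Rag2 were at 0 in all these classes. The part of these few UMIs in the results was not tested.

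Dendritic cell markers came to 66.4 CPM (18 UMIs) in control cycling B cells and were not detected in D-CAN cycling B cells. A single control cell of 41801 UMIs held all 8 UMIs of Xcr1, which marks cross-presenting dendritic cells. The same cell held 13 Cd79a, 31 Mki67 and 16 Top2a UMIs, 471 UMIs of Jchain and 1082 of Ighg2b, so markers of B cells, antibody-secreting cells and dendritic cells stood in 1 barcode. Several values that rest on it are given with and without it below. The 3 control and 6 D-CAN cycling cells with both Cd79 and Cd3 UMIs above the cutoffs are in neither lineage, and had medians of 1832 and 8529.5 UMIs. Doublets were not removed.

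The rule kept few cells by a wide margin. Of 133 control and 88 D-CAN cells with both a lineage and a cycling UMI, 22 and 5 were left out, of which 12 and 1 had a Dcn UMI. Just inside the limits, 4 and 5 members had 1 Lyz2 UMI and 13 and 11 had 1 endothelial UMI, while 1 control cell and no D-CAN cell stood just outside with exactly 2 Lyz2 UMIs. The cycling criterion itself was met by 1 UMI in 66 of 111 control and 45 of 83 D-CAN members, and by 3 or more UMIs in 31 and 23. Cycling cells were also deeper, with median UMI counts of 5761 and 4053 in cycling B cells against 2011.5 and 2600 in noncycling B cells, and of 3156 and 4508.5 against 2588 and 3441 in T cells. Depth and the criterion cannot be told apart without thinning, since a deeper cell passes a minimum of 1 UMI more easily.

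T cells met the cycling criterion somewhat more often than B cells at full depth. In the control library 38 of 576 B cells (6.60%, 4.71 to 8.94) and 61 of 708 T cells (8.62%, 6.65 to 10.9) met it. The D-CAN library gave 23 of 567 B cells (4.06%, 2.59 to 6.02) and 54 of 702 T cells (7.69%, 5.83 to 9.92). The share of T cells was higher by 2.02 points in the control (interval −1.04 to 5.0) and by 3.64 points in the D-CAN library (0.927 to 6.30). After each cell had been thinned to 1000 UMIs the gap was 1.79 and 0.764 points, with intervals that include 0 in both libraries, and at 2000 UMIs it was −1.96 points in the control and 1.61 points in the D-CAN library.

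**Figure D1:**
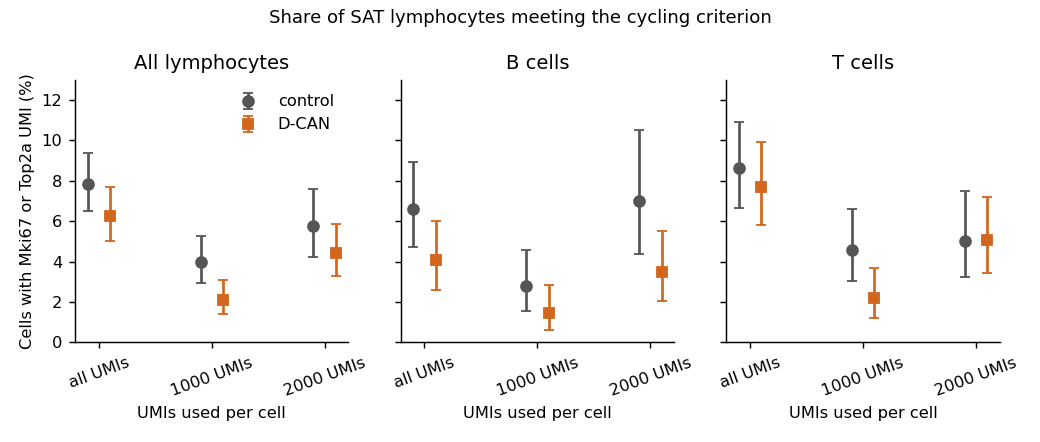
Share of SAT lymphocytes, B cells and T cells with an Mki67 or Top2a UMI (percent, vertical axis) when all UMIs, 1000 UMIs or 2000 UMIs per cell were used (horizontal axis), in the control (circles) and D-CAN (squares) libraries. Bars are exact 95% intervals for counting error, and in all lymphocytes the share at 1000 UMIs was 3.99% in the control and 2.12% in the D-CAN library.

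Between conditions, the D-CAN library had the lower share of cycling cells among lymphocytes at each depth, by less than the counting error at 2 of 3 depths. All UMIs gave 7.83% (6.48 to 9.35) in the control and 6.26% (5.02 to 7.71) in the D-CAN library, a difference of −1.56 points (−3.53 to 0.408). At 1000 UMIs per cell 48 of 1202 and 26 of 1227 cells met the criterion, and the difference was −1.87 points (−3.34 to −0.456), with 12 cycling and 204 noncycling control cells and 3 and 95 D-CAN cells too shallow to enter. At 2000 UMIs the difference was −1.29 points (−3.48 to 0.773). When 2 or more Mki67 and Top2a UMIs were asked for at 1000 UMIs, it turned to 0.229 points (−0.588 to 1.06). At full depth 45 of 1418 control and 38 of 1325 D-CAN lymphocytes had 2 or more such UMIs, so there the D-CAN share was the lower one. As a share of all SAT cells the direction was the other one, with 3.91% (3.22 to 4.69) in the control and 4.38% (3.50 to 5.40) in the D-CAN library. T cells gave −2.36 points (−4.60 to −0.225) at 1000 UMIs and 0.0349 points (−2.90 to 2.84) at 2000 UMIs, while B cells gave −1.33 (−3.29 to 0.516) and −3.53 points (−7.31 to −0.222). These shares are of 2 libraries, and differences between mice cannot be told apart from treatment.

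Mitosis RNA was highest in cells with 3 or more Mki67 and Top2a UMIs, while cells with 1 or 2 UMIs differed between classes. In control B cells, the mitosis list summed to 1306 CPM at 0 UMIs, 3018 CPM at 1 UMI, 8280 CPM at 2 UMIs and 10938 CPM at 3 or more. D-CAN B cells gave 1303, 1768, 1019 and 15916 CPM, so that there the cells with 1 or 2 UMIs stood near the noncycling level. All 7 D-CAN B cells with 3 or more UMIs held Pclaf, against none of the 11 cells with 1 UMI and none of the 5 with 2. Among control B cells, 4 of 19 cells with 1 UMI, 3 of 4 with 2 and 11 of 15 with 3 or more held it. In T cells the replication list went from 989 CPM at 0 UMIs through 1810 and 2781 CPM to 5425 CPM in the control and from 807 through 2199 and 3107 CPM to 5639 CPM in the D-CAN library, a graded series in both. Part of the cells that meet the criterion with 1 UMI therefore had little further cycle RNA, and the UMI count is itself related to depth.

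**Figure D2:**
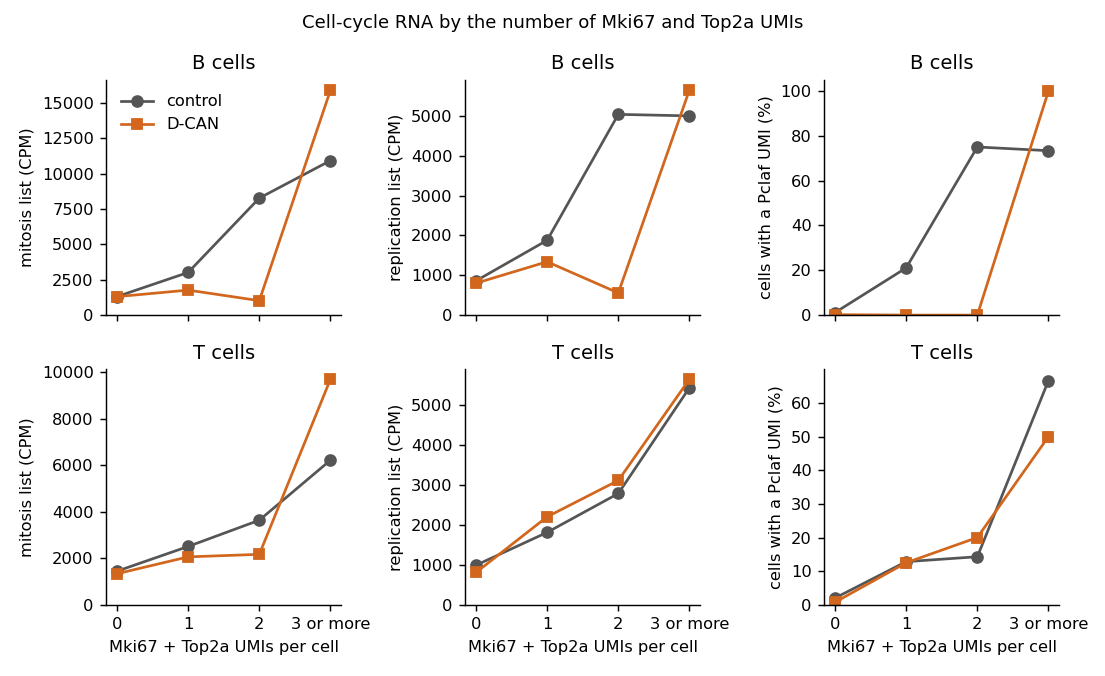
Summed CPM of the mitosis and replication lists and percent of cells with a Pclaf UMI (vertical axes) in B cells (top) and T cells (bottom) by the number of Mki67 and Top2a UMIs per cell (horizontal axis), control in circles and D-CAN in squares. The mitosis level of D-CAN B cells stays at or below 1768 CPM up to 2 UMIs, and every class stands highest in mitosis genes at 3 or more UMIs.

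A criterion built from genes outside the rule picked fewer cells, most of them members. Asking for 2 or more UMIs of Pclaf, Rrm2, Tyms, Birc5 and Cdk1 together picked 59 control and 28 D-CAN lymphocytes, of which 42 and 25 were members, or 71.2% and 89.3%. They were 37.8% of the 111 control members and 30.1% of the 83 D-CAN members. In B cells 19 of 21 and 7 of 7 cells chosen in this way were members, and in T cells 19 of 31 and 15 of 18.

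The broad difference between cycling and noncycling cells was described gene by gene, as the log2 ratio of CPM with 0.5 UMI added. A gene counted as higher or lower when it differed at least 2-fold in the same direction in both libraries, among genes with at least 20 UMIs over both classes in each library. By this rule 475 of 5491 genes (8.65%) were higher and 250 (4.55%) were lower in cycling B cells, and 316 of 6491 genes (4.87%) were higher and 90 (1.39%) lower in cycling T cells. These numbers move with depth and filter, to 164 higher and 80 lower in B and 112 and 25 in T cells at 1000 UMIs per cell, to 223 and 164 and to 147 and 26 with at least 50 UMIs, and to 1431 and 401 and to 1618 and 227 with at least 1 UMI. Mki67 and Top2a, which defined the cells, are among the higher genes of both lineages. The median over all genes was 0.16 and 0.10 on the log2 scale in B cells and 0.22 and 0.32 in T cells (control and D-CAN). Of the higher genes 94 were shared, among 5103 genes measured in both lineages, or 19.8% of those in B cells and 29.7% of those in T cells. These percentages are of all higher genes of a lineage, some of which were measured in that lineage only and could not be shared. Some lower calls rest on no UMI in the cycling class, 44 in B cells and 49 in T cells, and with 3 counts in place of 0 the numbers of lower genes became 215 and 54. Since the cells were chosen by 2 cycle genes, the levels of other genes in the same cells are a description of these cells and not an independent check.

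**Figure D3:**
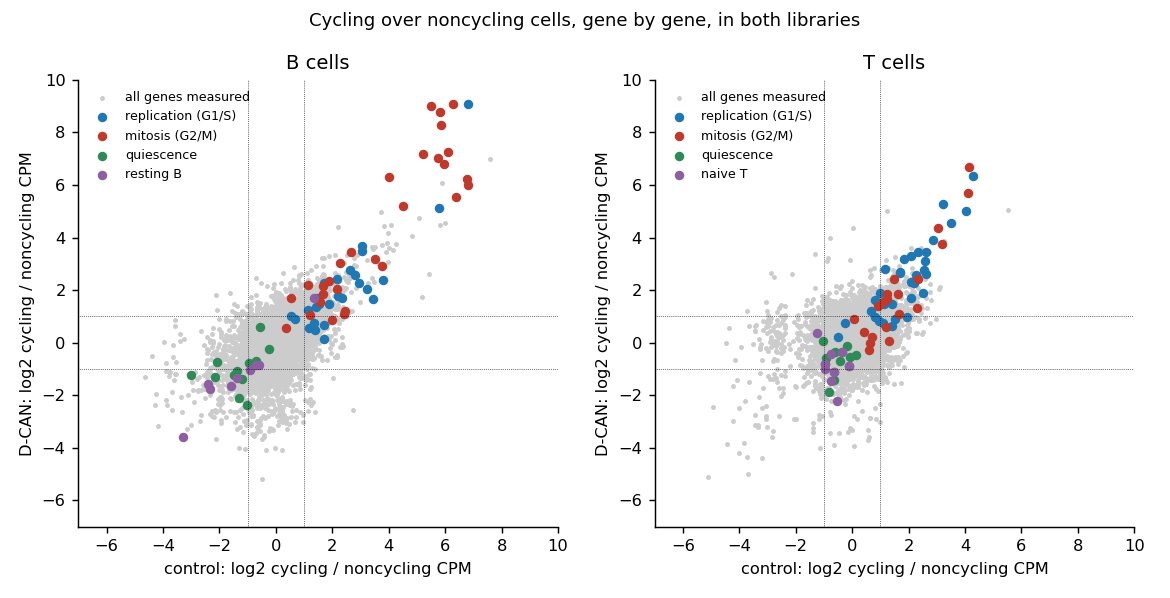
Log2 ratio of CPM, cycling over noncycling cells, in the control library (horizontal axis) and the D-CAN library (vertical axis) for each gene measured in B cells (left) and T cells (right), without Mki67 and Top2a. Grey points are all measured genes, coloured points are genes of the replication, mitosis, quiescence and resting B or naive T lists, and dotted lines mark 2-fold. Mitosis genes reach log2 ratios above 5 in B cells, and quiescence genes lie mostly below 0 in both lineages.

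Most measured DNA replication genes were higher in cycling cells of both lineages, among which 11 of 26 in B and 8 of 33 in T cells had under 20 UMIs in the noncycling cells of at least 1 library. In B cells 19 of 26 measured genes of the list were higher and none was lower, with medians of 2.03 (control) and 1.70 (D-CAN) on the log2 scale, and in T cells 22 of 33 were higher and none lower, with medians of 1.94 and 2.30. Pclaf was at 627 and 532 CPM in cycling B cells against 5.21 and 0.657 CPM in noncycling B cells, log2 ratios of 6.80 and 9.09. Cycling T cells had 246 and 194 CPM of Pclaf against 12.4 and 2.17 CPM, log2 ratios of 4.29 and 6.36. Rrm2, the regulated subunit of ribonucleotide reductase, had log2 ratios of 5.79 and 5.11 in B cells and 4.05 and 5.0 in T cells.
All measured MCM helicase subunits, Mcm2 to Mcm7, were higher in both lineages. Mcm3 was at 133 and 92.8 CPM in cycling B cells against 13.9 and 23.0 CPM in noncycling ones, and at 141 and 150 CPM against 23.6 and 17.3 CPM in T cells. Uhrf1, which carries DNA methylation over to the new strand, was measured in T cells only and had log2 ratios of 3.22 and 5.28. Pcna, the clamp gene, was higher in T cells (1.41 and 1.46) and missed the 2-fold line in D-CAN B cells (1.38 and 0.47). The enzymes of nucleotide supply followed, with Dut at log2 ratios of 2.77 and 2.94 in B cells and 2.02 and 2.15 in T cells. Of the nucleotide synthesis list, 5 of 8 measured genes were higher in B cells and 3 of 11 in T cells, with 3 and 1 of the measured genes under 20 UMIs in the noncycling cells of at least 1 library.

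Most measured mitosis genes were higher in both lineages. In B cells 26 of 29 measured genes of the 55 listed were higher and none lower, with medians of 3.53 and 3.19, and in T cells 12 of 20 were higher and none lower, with medians of 1.28 and 1.47. Many passed the filter only through the cycling class, where they are high, since 16 of the 29 in B cells and 5 of the 20 in T cells had under 20 UMIs in the noncycling cells of at least 1 library. The median of both libraries in B cells followed the filter, from 3.36 to 4.78 with a minimum of 1 UMI and to 2.02 with 50 UMIs, so it describes the genes that passed and not the list. The summed level was 8934 and 9863 CPM in cycling B cells against 1306 and 1303 CPM in noncycling B cells, and 4229 and 4331 CPM in cycling T cells against 1444 and 1334 CPM. Leaving out cells above the 99th percentile of UMIs among the lymphocytes of their library gave a median of 1.99. It kept 31 of 38 control and 21 of 23 D-CAN cycling B cells. Whether the lower median came from the cells left out or from the genes that then passed was not tested.
Cdk1, the kinase that starts mitosis, was at 140 and 167 CPM in cycling B cells against 0.868 and 1.97 CPM. Its partner cyclin gene Ccnb2 had log2 ratios of 6.12 and 7.27 in B cells and 4.12 and 5.68 in T cells. Birc5 and Cdca8, subunits of the chromosomal passenger complex, had ratios of 5.83 and 8.28 and of 6.80 and 6.0 in B cells, and of 4.14 and 6.67 and of 3.05 and 4.35 in T cells. Genes of mitotic exit behaved likewise, with Ube2c at 254 and 507 CPM and Cdc20 at 133 and 254 CPM in cycling B cells, both at most 5.21 CPM in noncycling B cells. Hmgb2, a chromatin protein gene expressed also outside mitosis, was at 2529 and 2128 CPM in cycling B cells and 1292 and 1297 CPM in cycling T cells, against 219 and 234 CPM and 256 and 242 CPM in noncycling cells. In the noncycling B cells of the D-CAN library Tpx2 and Hmmr had no UMI, and the median stayed at 3.19 with both at the bound of 3 counts.

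The summed mitosis list was higher in cycling B than in cycling T cells by a log2 ratio of 1.08 (0.97 to 1.19) in the control and 1.19 (1.08 to 1.29) in the D-CAN library. In the D-CAN library the 7 B cells with 3 or more Mki67 and Top2a UMIs carried this difference, since B cells with 1 or 2 UMIs were at 1768 and 1019 CPM against 2058 and 2166 CPM in T cells. At 1000 UMIs per cell the median cycling cell held 4 mitosis UMIs in B and 2 in T cells of the control, and 2 in both lineages of the D-CAN library. The replication list differed less, by 0.31 (0.18 to 0.44) and 0.10 (−0.05 to 0.24). After thinning to 1000 UMIs, cells with more mitosis than replication UMIs numbered 23 of 35 (65.7%, 47.8 to 80.9) and 12 of 23 (52.2%, 30.6 to 73.2) among cycling B cells and 29 of 57 (50.9%, 37.3 to 64.4) and 22 of 51 (43.1%, 29.3 to 57.8) among cycling T cells. Noncycling cells also had more mitosis UMIs in 228 of 503 and 260 of 527 B cells and in 257 of 533 and 276 of 580 T cells, so this share is not read as a phase.

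Histone genes were higher in cycling cells in 9 of 10 measured genes in B cells (medians 2.95 and 2.92) and in 5 of 8 in T cells (1.51 and 1.40), and 3 and 1 of these measured genes passed the filter only with the help of the cycling class. Hist1h1b, a replication-dependent linker histone gene, had log2 ratios of 5.99 and 4.54 in B cells and 5.52 and 5.04 in T cells. H2afz, the gene of the variant H2A.Z, was at 2002 and 1800 CPM in cycling B cells against 212 and 203 CPM. The assay primes on poly(A), which most replication-dependent histone mRNAs lack, so these levels do not measure all histone RNA.

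Among regulators of the cycle only a few passed 2-fold. In B cells Ccnd3 (1.46 and 1.54), the D-type cyclin gene used by dividing B cells, and Cdk4 (2.09 and 1.28) were higher. In T cells Cdk6 was higher instead, at 101 and 91.2 CPM against 32.1 and 21.2 CPM, while Ccnd3 had ratios of 0.11 and −0.29. E2f2 was higher in both lineages, with 2.16 and 1.76 in B cells and 1.93 and 1.93 in T cells. Cdkn1b, which encodes the inhibitor p27, was lower in cycling B cells (−1.5 and −1.18) and gave 0.25 and −0.52 in T cells. Of the list, 4 of 11 measured genes were higher and 1 lower in B cells, and 2 of 13 higher and none lower in T cells. Of these measured genes, 2 in B and 3 in T cells had under 20 UMIs in the noncycling cells of at least 1 library.

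**Figure D4:**
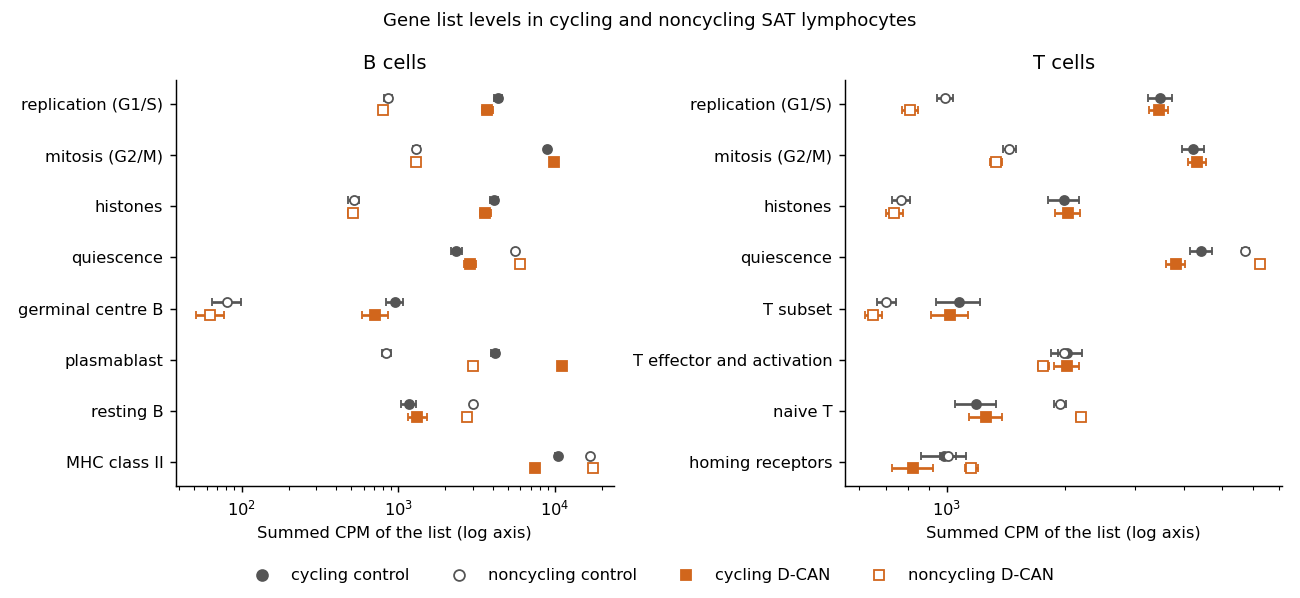
Summed CPM of gene lists (log axis) in cycling (filled) and noncycling (open) B cells (left) and T cells (right) of the control (circles) and D-CAN (squares) libraries, with exact 95% Poisson intervals. Replication, mitosis and histone lists lie to the right in cycling cells of both lineages, and the quiescence list lies to the left.

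Some genes of quiescence and recirculation were lower in cycling B cells. Of 12 measured genes of the quiescence list 7 were lower and none higher, with medians of −1.26 and −1.15, and the sum was 2345 and 2871 CPM against 5516 and 5963 CPM. Klf2, a transcription factor that holds lymphocytes at rest and keeps homing receptors on, had ratios of −1.49 and −1.21. Its target S1pr1, the receptor for exit from lymphoid tissue, was at 29.5 and 12.4 CPM against 77.3 and 65.7 CPM. Btg1, an antiproliferative gene, was at 889 and 903 CPM against 2062 and 2364 CPM. In T cells no gene of the 13 measured was lower by the rule, and the medians were −0.62 and −0.59, below the medians over all genes in both libraries. Klf2 in T cells gave −0.63 and −1.40.

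The homing receptors went the same way in B cells, with 6 of 10 lower and none higher. Gpr183, the oxysterol receptor that guides B cells to the follicle edge, was at 44.2 and 49.5 CPM in cycling B cells against 374 and 465 CPM, log2 ratios of −3.02 and −3.15. Ccr7 had ratios of −2.16 and −1.29. In T cells 2 of 11 were lower, Cxcr4 (−1.03 and −1.06), the CXCL12 receptor gene, and Ccr9, which had no UMI in cycling T cells of either library and 27 and 34 UMIs in noncycling T cells, which with 3 counts in place of 0 is at least 1.15-fold and 1.67-fold lower and no longer 2-fold. Bcl2, the survival gene of resting lymphocytes, was lower in both lineages, at 29.5 and 24.7 CPM against 123 and 118 CPM in B cells and at 87.9 and 97.0 CPM against 266 and 278 CPM in T cells. Bak1, which promotes cell death, was higher in both, on 5 to 9 UMIs per cycling class. These were the only genes of the BCL2 family past 2-fold, of 8 measured in B and 10 in T cells.

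Of 9 listed germinal centre genes 3 were measured, of which 2 were higher in cycling B cells and none was lower. Both higher genes had under 20 UMIs in the noncycling cells of at least 1 library. Rgs13, a regulator of chemokine receptor signalling in germinal centre B cells, was at 324 and 247 CPM in cycling against 22.6 and 11.2 CPM in noncycling B cells, log2 ratios of 3.83 and 4.45. Bcl6, the master regulator of that state, had ratios of 0.11 and 0.60. The summed list reached 951 and 712 CPM in cycling and 80.8 and 63.0 CPM in noncycling B cells.
Seen cell by cell, 17 of 38 control cycling B cells (44.7%, 28.6 to 61.7) and 4 of 23 D-CAN cycling B cells (17.4%, 4.95 to 38.8) held UMIs of 2 or more of the 9 genes. Noncycling B cells did so in 6 of 538 and 9 of 544 cases, and cycling T cells in 0 of 61 (which allows up to 4.92%) and 2 of 54. At least 1 of the 9 genes was in 23 of 38 and 7 of 23 cycling B cells and in 7 of 61 and 12 of 54 cycling T cells. Noncycling B cells gave 43 of 538 and 45 of 544, and noncycling T cells 73 of 647 and 78 of 648, so T cells also held single genes of the list. Median depth was 5761 and 4053 UMIs in cycling B and 3156 and 4508.5 UMIs in cycling T cells. Thinned to 1000 UMIs, 10 of 35 and 2 of 23 cycling B cells remained above this line, with 2 of 503 and 0 of 527 noncycling B cells, and the D-CAN count is below the 3 counts that a count of 0 allows. The difference between the libraries, D-CAN minus control, was −27.3 points (−48.4 to −0.566) at full depth and −19.9 points (−39.2 to 3.96) after thinning, with an interval that includes 0. With a minimum of 1 of the 9 genes, the thinned counts were 14 of 35 and 2 of 23, a difference of −31.3 points (−50.7 to −6.12). With a minimum of 3 genes they were 2 of 35 and 1 of 23, a difference of −1.37 points (−15.5 to 16.9). At full depth that minimum gave −22.1 points (−43.3 to 4.29), so the reading depends on the minimum chosen. By strength of the criterion, the cells with 2 or more of these genes were 4, 3 and 10 control cells with 1, 2 and 3 or more Mki67 and Top2a UMIs, and all 4 D-CAN cells had 3 or more.

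**Figure D5:**
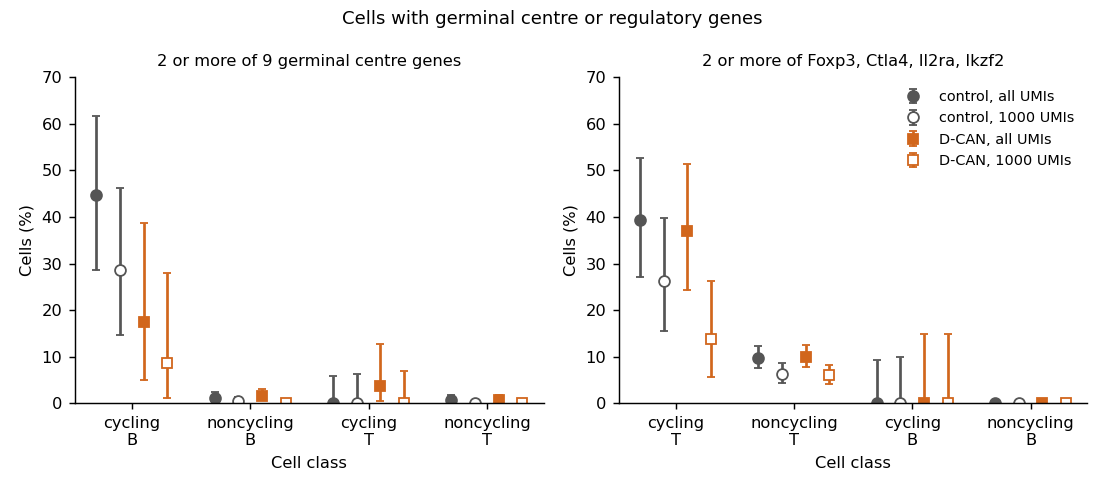
Percent of cells with UMIs of 2 or more of 9 germinal centre genes (left) and of 2 or more of Foxp3, Ctla4, Il2ra and Ikzf2 (right) in each class (horizontal axis), at full depth (filled) and thinned to 1000 UMIs (open), control in circles and D-CAN in squares, with exact 95% intervals for counting error. Cycling B cells stand above noncycling B cells on the left, and cycling T cells above noncycling T cells on the right.

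Of 9 genes of the resting, naive follicular B cell, all measured, 5 were lower and 1 was higher, with medians of −1.39 and −1.36. Cd55, a complement regulator, was at 29.5 and 18.6 CPM against 304 and 262 CPM, Fcer2a (CD23) had ratios of −2.32 and −1.74, and Cr2, the complement receptor, −1.58 and −1.65. Vpreb3 went against the list and was higher, at 277 and 415 CPM against 108 and 127 CPM. Ighd, whose IgD marks naive B cells, had a UMI in 11 of 38 control and 11 of 23 D-CAN cycling B cells, against 442 of 538 and 478 of 544 noncycling B cells. The gap remained at 1000 UMIs per cell, with 8 of 35 and 8 of 23 against 323 of 503 and 355 of 527 cells. T cells, which do not express IgD, gave Ighd in 16 of 647 and 9 of 648 noncycling cells at medians of 2588 and 3441 UMIs.
Of 10 MHC class II genes, which serve antigen presentation, 4 were lower and none higher, and the sum was 10435 and 7419 CPM in cycling against 16643 and 17451 CPM in noncycling B cells. The activation genes Cd83 (−1.57 and −1.30) and Il4i1 (−1.53 and −1.74) of the list of light and dark zone genes were lower, and Ung, a uracil glycosylase gene of DNA repair, was higher (1.89 and 1.46). Of the T cell activation list 2 genes were measured in B cells, and Cd44, an adhesion receptor gene, was higher (1.95 and 2.26) while Tnfrsf18 was lower (−1.34 and −1.89).

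Plasmablast genes were higher in sum, but a few cells held most of the RNA. Of 7 measured genes 4 were higher and none lower, with medians of 1.63 and 2.32. Of the 7, 1 had under 20 UMIs in the noncycling cells of at least 1 library. Jchain, the joining chain of secreted IgA and IgM, was at 2268 and 6231 CPM in cycling against 61.7 and 1874 CPM in noncycling B cells. The cell with the most immunoglobulin RNA held 70.8% of all such UMIs of the control class, and it is the cell of 41801 UMIs described above. In the D-CAN class the top cell of 17380 UMIs held 53.2%, and 45.2% of its own UMIs were immunoglobulin. Ighg2b in the control went from 4008 to 21.8 CPM without its top cell. A further D-CAN cell, of 36192 UMIs, was also rich in antibody RNA, so that 1 control and 2 D-CAN cycling cells exceeded 10% immunoglobulin. Without these 3 cycling cells, a choice made after seeing the data, Jchain was at 628 CPM in the control, above its noncycling level, and at 398 CPM in the D-CAN library. All noncycling cells were kept, of which 0 of 538 control and 3 of 544 D-CAN B cells also exceeded 10% immunoglobulin. Cycling and noncycling D-CAN cells are therefore unlike selections here, and a direction without such cells in both classes was not tested. Mzb1, an antibody-folding cofactor gene, went from 1257 to 571 CPM and from 3118 to 620 CPM, beside 407 and 562 CPM in noncycling B cells. The median of the list over both libraries was 1.97 with all cells, 0.61 without the top immunoglobulin cell of each library and −0.08 without cells over the 99th percentile of UMIs. The typical cycling B cell carried little antibody RNA, with a median of 0.835% and 1.19% of its UMIs against 1.15% and 1.14% in noncycling B cells. Ighm, the IgM gene, was lower in cycling B cells at 608 and 1015 CPM against 1713 and 2924 CPM, and so was Ighg3, which had 1 UMI in each library. Over the 8 measured constant region genes 2 were higher, Ighg1 and Igkc, and 3 were lower. Igkc, the kappa chain gene, was at 14811 and 56156 CPM against 6616 and 16697 CPM. Without the 3 cycling cells it was at 4729 and 5562 CPM, below the noncycling level in the control. In the D-CAN library the noncycling level still holds cells over 10% immunoglobulin, so no direction is given there. Ighg1 was at 730 and 25467 CPM against 53.0 and 1945 CPM. Without the 3 cycling cells it was at 785 and 694 CPM, above the noncycling level in the control, and for the same reason no D-CAN direction is given. What remained of Ighg1 in the D-CAN class was 75 UMIs in 5 cells.

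In cycling T cells 2 genes abundant in regulatory T cells were higher. Il2ra, the high-affinity interleukin 2 receptor chain, was at 237 and 82.3 CPM against 37.7 and 33.0 CPM, and Ikzf2, which encodes Helios, at 523 and 373 CPM against 177 and 147 CPM, the only 2 of 7 measured T subset genes past 2-fold in both libraries. Foxp3 was at 79.1 and 38.2 CPM (18 and 13 UMIs) against 18 and 20.8 CPM, ratios of 2.15 and 0.92, and so missed 2-fold in the D-CAN library. Ctla4, an inhibitory receptor gene abundant in regulatory T cells, had ratios of 1.58 and 0.99, and Icos 1.47 and 0.72.
UMIs of 2 or more of Foxp3, Ctla4, Il2ra and Ikzf2 were seen in 24 of 61 control (39.3%, 27.1 to 52.7) and 20 of 54 D-CAN cycling T cells (37.0%, 24.3 to 51.3). Among noncycling T cells the counts were 63 of 647 (9.74%) and 64 of 648 (9.88%), and no B cell of any class reached it. After thinning to 1000 UMIs 15 of 57 and 7 of 51 cycling T cells were above this line, against 33 of 533 and 35 of 580 noncycling T cells. The libraries differed by −2.31 points (−20.8 to 16.5) at full depth and −12.6 points (−28.2 to 3.94) at 1000 UMIs, both within counting error. By strength of the criterion, 7 genes of these cells (the 4 with Icos, Tnfrsf4 and Tnfrsf18) summed to 665 CPM at 0, 2185 at 1, 2497 at 2 and 1722 CPM at 3 or more Mki67 and Top2a UMIs in the control and to 583, 1843, 700 and 1070 CPM in the D-CAN library, where the level was highest at 1 UMI. Foxp3 UMIs themselves were in 11 of 61 and 8 of 54 cycling and 23 of 647 and 32 of 648 noncycling T cells. At 1000 UMIs Foxp3 was left in 1 of 57 and 2 of 51 cycling cells, which is too few to compare.

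Of the list of T cell effector and activation genes, 3 of 16 measured were higher and 2 lower, and 3 of the 16 had under 20 UMIs in the noncycling cells of at least 1 library. The higher ones were Tnfrsf4 (1.5 and 1.80) and Tnfrsf9 (1.02 and 2.02), costimulatory receptor genes induced by antigen, and Lag3 (1.22 and 3.16), an inhibitory receptor gene with 5 and 12 UMIs. Ccl5, a chemokine gene of memory and cytotoxic cells, was lower at 299 and 282 CPM against 937 and 815 CPM, and Gzma was called lower on 0 and 1 UMIs, in the control at least 1.49-fold with 3 counts in place of 0. Cells with Cd4 and no Cd8 UMI were 15 of 61 and 14 of 54 among cycling and 93 of 647 and 113 of 648 among noncycling T cells. Cells with a Cd8a or Cd8b1 and no Cd4 UMI were 10 of 61 and 14 of 54 among cycling against 181 of 647 and 201 of 648, and most of the remaining T cells had neither UMI. At 1000 UMIs per cell, those with Cd4 were 6 of 57 and 2 of 51 cycling against 44 of 533 and 36 of 580 noncycling T cells, so the D-CAN direction turned, and those with Cd8 were 6 of 57 and 7 of 51 against 94 of 533 and 110 of 580. The naive T list had no gene past 2-fold in both libraries, with medians of −0.75 and −0.89 over 9 genes. Satb1, a chromatin organiser, gave −0.75 and −1.44, and Lef1 −0.95 and −0.99.
Of lists made for B cells, plasmablast genes had 2 of 6 measured members higher in T cells, Prdm1 and Sec11c, and Cd55 was lower. Bcl6 was called lower as well, but on 0 and 1 UMIs in cycling T cells, and with 3 counts in place of 0 it was at least 1.15-fold lower in the control, short of 2-fold.
MHC class II genes in cycling T cells were at 273 and 594 CPM. In the D-CAN library a single cell of 20273 UMIs held 23 of the 24 H2-Aa UMIs, and without it H2-Aa went from 70.6 to 3.13 CPM and Cd74 from 297 to 40.6 CPM.

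Among genes of energy metabolism, the glycolysis list had medians of 1.57 and 0.48 in B cells and 0.91 and 0.98 in T cells. In T cells 4 of 14 glycolysis genes were higher and none lower, namely Gapdh (1.33 and 1.01), Ldha (1.13 and 1.07), Pgk1 (1.44 and 1.41) and Hk2 (1.63 and 2.25), the last with 60.0% and 75.0% of its UMIs in 1 cell. In B cells 2 of 13 were higher, Gapdh (1.57 and 1.16) and Tpi1 (2.27 and 1.29). Respiratory chain genes had medians of 1.15 and 0.86 in B cells and 0.67 and 0.74 in T cells, with 3 of 16 and none of 16 past 2-fold, Cycs (1.72 and 1.31), Ndufa4 and Uqcrq being the 3. Of the Myc and nucleolus list few genes passed 2-fold, since Ran was the only gene of 13 higher in B cells (1.66 and 1.22) and Ldha the only one in T cells. Myc itself gave −0.47 and −1.5 in B and −0.53 and −0.50 in T cells.

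Outside the lists, the genes with the highest ratios in B cells included several cycle genes. Of the 10 genes ranked highest, 7 in B and 4 in T cells passed the filter only with the help of the cycling class, such as Knl1 with 2 and 6 UMIs and Incenp with 3 and 10 UMIs in noncycling B cells. Esco2, which encodes a cohesin acetyltransferase of S phase, had 22 UMIs in control cycling B cells and none in noncycling ones, at least 31.1-fold higher, and a log2 ratio of 6.98 in the D-CAN library. Knl1 and Incenp, kinetochore and centromere genes, Smc2, a condensin subunit gene, Lmnb1, the lamin B1 gene, Ezh2, the histone H3 methyltransferase gene active in germinal centre B cells, and the tubulin regulator gene Stmn1 (3.96 and 4.17) were in this group, together with Basp1 and Eaf2. In some of them 1 cell held a large share of the UMIs, 83.4% and 94.3% for Slpi, a protease inhibitor gene also in this group, 41.0% and 48.1% for Eaf2, 43.5% and 44.4% for Incenp, and in the D-CAN library 54.5% for Esco2, 45.6% for Ezh2 and 40.4% for Basp1. Among the 5 lowest ratios in cycling B cells, which depend on the 0.5 UMI added, Klf3 had UMIs in both libraries and log2 ratios of −2.70 and −2.97. Cd274, the PD-L1 gene, had no UMI in either library against 38 and 42 UMIs in noncycling B cells, at least 2.98-fold and 1.49-fold lower. Pglyrp1, Xaf1 and Tmem2 had 0 or 1 UMI per cycling class.
In T cells the top genes were Lig1, the replicative DNA ligase gene (3.25 and 3.85), Stmn1 (2.72 and 3.43), the kinetochore genes Spc24 and Cenpw, Smc2, the clamp loader gene Rfc4, Ttc39c, Lmna (3.12 and 2.12) and the chemokine gene Cxcl10 (2.35 and 2.34). A single cell held 51.0% of the Lmna UMIs in the control and 55.2% of the Cxcl10 UMIs in the D-CAN library. Il17a was in this group through 1 cell in each library, which held all 18 and 20 UMIs. Among the lowest 5 by the same measure were Tagln, Myl9 and Myh11, genes of smooth muscle, Fscn1, and the neutrophil gene S100a8, which all had no UMI in cycling T cells of either library. Their UMIs in noncycling T cells came from few cells, 14 and 5 for Tagln and 3 and 2 for S100a8.

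D-CAN and control cycling cells were compared last, without replicates. In cycling B cells 2764 genes had a total of 20 UMIs or more, of which 119 (4.31%) were at least 2-fold higher and 184 (6.66%) at least 2-fold lower in the D-CAN library. In cycling T cells 179 of 3405 (5.26%) were higher and 99 (2.91%) lower. The median over all genes was −0.11 in B and 0.03 in T cells on the log2 scale.
The replication list in sum gave −0.26 (−0.41 to −0.10) in cycling B and −0.01 (−0.15 to 0.12) in cycling T cells, and the mitosis list 0.14 (0.04 to 0.23) and 0.04 (−0.09 to 0.17). None of 26 replication genes was 2-fold higher and 3 were 2-fold lower in cycling B cells, and 2 of 38 mitosis genes were higher and 1 lower. In noncycling B cells the same sums gave −0.10 (−0.23 to 0.02) and 0.04 (−0.06 to 0.14). Noncycling T cells gave −0.27 (−0.37 to −0.18) for replication and −0.09 (−0.17 to −0.02) for mitosis. The B cell values changed sign with the cells used: without cells over the 99th percentile of UMIs the replication list gave 0.33, and without cells holding any Lyz2 or endothelial UMI the mitosis list gave −0.28. With each cell thinned to 1000 UMIs, so that all weigh the same, the replication list gave −0.62 in B and −1.06 in T cells, and the mitosis list −0.28 and −0.15, from the fewer genes that still had 20 UMIs.

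Among the 10 genes ranked by their difference in cycling B cells, 7 had over 40% of their UMIs in 1 cell of the library where they were high. Immunoglobulin constant genes and Jchain are not among these 10, and some of them differed by more. In cycling B cells Ighg1 was at 730 CPM in the control and 25467 CPM in the D-CAN library, and Ighg2b at 4008 and 12.4 CPM. Slpi was higher in the D-CAN library by a log2 ratio of 3.05 (2.87 to 3.25), beside 2.87 in noncycling B cells, with 94.3% of its UMIs in 1 cell, and Sec11c (2.06), a signal peptidase gene, Rexo2 (1.46), Mzb1 (1.31) and Ssr4 (1.19) were higher with 43.1% to 71.8% of their UMIs in 1 D-CAN cell. Of the plasmablast list, 6 of 8 genes were at least 2-fold higher and none lower, with a sum of 1.43 (1.32 to 1.54), beside 1.83 (1.73 to 1.94) in noncycling B cells. Among noncycling B cells, 0 of 538 in the control and 3 of 544 in the D-CAN library exceeded 10% immunoglobulin. The part of these cells in the noncycling value was not tested. Without the 1 control and 2 D-CAN cycling cells over 10% immunoglobulin, the list had 4 measured genes, of which 1 was 2-fold higher and none lower, and its sum was 1360 CPM in both libraries. Slpi was then at 196 CPM in the control and 83.3 CPM in the D-CAN library, from 45 and 9 UMIs, so its direction turned (−1.17). The ratio was 1.40 for Sec11c, from 20 and 25 UMIs, and 0.18 for Rexo2, 0.12 for Mzb1 and 0.034 for Ssr4. With only the top cell of each gene left out per library, Slpi stayed higher in the D-CAN library (1.64). Sec11c then gave 2.41, Rexo2 1.51, Mzb1 0.99 and Ssr4 1.52. The plasmablast list gave 2.35 without the top immunoglobulin cell of each library, with 5 of 6 genes higher. These values therefore depend on which cells are left out. Psap (−2.17) and Cst3 (−2.00), lysosomal and secreted protein genes abundant in myeloid cells, were lower, but 73.4% and 79.4% of their control UMIs were in the control cell that held Xcr1. Without that cell, control Cst3 was at 244 CPM, beside 247 CPM in the D-CAN library, and Psap at 126 CPM beside 86.6 CPM. Smc1a (−1.28), a cohesin subunit gene, Ptpn18 (−1.17) and Laptm5 (−1.15) were lower with at most 25.8% of UMIs in 1 cell in either library.

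In cycling T cells the 5 highest genes in the D-CAN library were Xcl1, Ccl4, Nkg7, Dapl1 and Slfn2. The list of T cell effector and activation genes in sum gave a log2 ratio of −0.013 (−0.19 to 0.16), with 3 of 13 genes at least 2-fold higher and 1 lower. Xcl1, the chemokine gene whose receptor is XCR1, had 3 UMIs in 1 control cell and 202 UMIs in 5 D-CAN cells, a log2 ratio of 5.27 (3.93 to 7.78). The level was 594 CPM in the D-CAN library against 13.2 CPM in the control. A single cell held 57.9% of the D-CAN UMIs, and the cell that held 77.6% of the Ccl4 UMIs (3.71) had most of the rest. Without these 2 cells, chosen after seeing the data, 6 Xcl1 UMIs (19.5 CPM) and 15 Ccl4 UMIs (48.8 CPM) were left in D-CAN cycling T cells. The same choice in the control left out 1 cell, and 0 Xcl1 UMIs and 1 Ccl4 UMI (4.49 CPM) were left. Nkg7 was then at 49.4 CPM in the control and 195 CPM in the D-CAN library, from 11 and 60 UMIs. Nkg7 (2.24), a cytotoxic granule gene, was in 8 of 61 control and 16 of 54 D-CAN cells with 22.1% of its D-CAN UMIs in 1 cell, and Dapl1 (1.77) and Slfn2 (1.65) were spread over 16 and 29 D-CAN cells. In noncycling T cells the corresponding log2 ratios lay between 0.06 (Nkg7) and 0.55 (Xcl1). The 5 lowest genes were Atp2b1 (−1.12), Itpkb (−1.09), Ifi27l2a (−1.08), Lgals1 (−0.98) and Tra2b (−0.98). Ifi27l2a, an interferon-induced gene, was lower by as much in noncycling T cells (−1.11), so that difference was shared by both classes, and the other 4 lay between −0.21 and 0.10 there.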

How the data were processed

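Single-cell RNA-seq (10x Chromium 3′) was read from 2 SAT libraries, and 2 tumor graft libraries for 1 check. The authors aligned reads to mm10 with Cell Ranger 3.1.0 and STAR 2.6, per the submitters' processing notes (the header of the D-CAN SAT file names 3.0.2), and the authors deposited raw UMI counts, not normalized. No deposited per-sample column was left unused (0). The members and gene lists were chosen with earlier results of these data known, so no list is independent evidence. Named genes are list members, the 10 highest and 5 lowest cycling over noncycling ratios per lineage outside the lists, and the 5 highest and 5 lowest D-CAN over control ratios among genes with at least 100 UMIs. Mitochondrial, ribosomal protein, variable receptor and unnamed genes were left out of these rankings. Immunoglobulin constant genes and Jchain do not appear in them either, although some differed more between libraries in cycling B cells than the ranked genes. For each class and library the UMIs of its cells were added up and scaled to CPM. Intervals of shares are Clopper-Pearson, of sums Poisson, of ratios conditional binomial, and of differences of shares combine both exact intervals, all at 95%. A count of 0 allows up to 3 counts. The BCL2 family, light and dark zone and glycolysis lists in B cells each had 1 measured gene under 20 noncycling UMIs in a library. So did the homing receptor, plasmablast and MHC class II lists in T cells. Scrublet (scanpy 1.11.5) called 5 of 2841 and 4 of 1897 cells doublets (0.176% and 0.211%), too few for expected rates of 2.27% and 1.52%, so it is taken not to have worked and no cell was removed. Thinning drew UMIs without replacement (seed 7). Calls were tested on simulated counts that held counting error only, so the test does not cover genes with most UMIs in 1 cell. Python 3.11.15, numpy 2.4.6, scipy 1.17.1 and pandas 2.3.3 were used. Some list members are not reported here by name.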

Additional observations from a re-analysis of the deposited data

Results flagged for a closer look

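The list of light zone and dark zone genes had a median log2 ratio of cycling over noncycling cells, averaged over both libraries, of −0.88 in B cells and 0.73 in T cells, the opposite direction in the 2 lineages. The difference was not tested. It rests on 6 measured genes in B and 5 in T cells, with Cd83 at −1.57 and −1.30 in B and 0.32 and 1.18 in T cells (control and D-CAN), and Cxcr4 below 0 in both lineages.

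The same selection in the tumor graft libraries, which no comparison above used, found 6 of 21 lymphocytes cycling in the D-CAN tumor (28.6%, 11.3 to 52.2) and 5 of 25 in the control tumor (20%, 6.83 to 40.7), all of them T cells. Counts of 0 would allow 14.3% and 12%. Of these cells 5 and 3 had no UMI of the epithelial markers.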

How the results depend on the processing

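Of 337 recomputed values over 25 results and 18 settings, 210 stayed within their spread, 115 moved by more and 12 changed sign. As given above, the cycling share of lymphocytes, B cells and T cells differed by −1.87, −1.33 and −2.36 points (D-CAN minus control, 1000 UMIs). Numbers of genes higher and lower were 475 and 250 in B cells and 316 and 90 in T cells. Medians over both libraries were 1.86 (replication), 3.36 (mitosis) and 3.78 (germinal centre) in B cells and 2.12 and 1.37 (replication, mitosis) in T cells. D-CAN over control ratios were −0.26 and 0.14 in B and −0.01 and 0.04 in T cells (replication, mitosis). Causes of the moves below were not tested, except where the setting itself leaves fewer genes or cells.

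With 2 or more Mki67 and Top2a UMIs, the share differences were 0.229 points in lymphocytes and 0.262 points in T cells, 395 genes were lower in B cells and 578 higher and 166 lower in T cells. Medians were then 2.10 (replication, B), 3.97 (germinal centre), 2.46 (replication, T) and 1.74 (mitosis, T), and the D-CAN ratio of replication in T cells −0.17. With 3 or more UMIs, chosen after seeing the data, the share differences were 0.482, 0.545 and 0.442 points in lymphocytes, B and T cells, 447 genes were lower in B cells and 739 higher and 274 lower in T cells. Medians were 2.20 (replication, B), 4.19 (germinal centre), 2.66 (replication, T) and 2.08 (mitosis, T), and D-CAN ratios 0.13 (replication, B), 0.54 (mitosis, B) and 0.66 (mitosis, T). With the 5 other cycle genes as criterion, 472 genes were lower in B cells and 820 higher and 314 lower in T cells, medians in T cells were 2.66 and 1.89 (replication, mitosis), and D-CAN ratios −0.062 and 0.41 in B cells (replication, mitosis) and −0.15 in T cells (mitosis). Thinning to 2000 UMIs gave share differences of −3.53 points in B and 0.0349 points in T cells.

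Without cells over the 99th UMI percentile, 129 genes were lower in B cells, medians were 1.99 (mitosis, B), 4.12 (germinal centre), −0.083 (plasmablast, from 1.97), 1.54 (replication, T) and −0.12 (Myc and nucleolus, T, from 0.50), and D-CAN ratios 0.33 and 0.86 in B cells (replication, mitosis) and −0.31 in T cells (replication). Without cells holding a Lyz2, Pecam1 or Cdh5 UMI, 146 genes were lower in B cells, medians were 2.40 (replication, B), 1.92 (mitosis, B) and −0.27 (plasmablast), and D-CAN ratios −0.28 (mitosis, B), −0.26 (replication, T) and −0.24 (mitosis, T). Without the top immunoglobulin cell of each library, chosen after seeing the data, the germinal centre median was 3.99 and the D-CAN ratio of mitosis in B cells 0.27.

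A minimum of 50 UMIs gave 223 higher and 164 lower genes in B and 147 and 26 in T cells, with medians of 1.49 and 2.02 in B cells (replication, mitosis) and 1.78 in T cells (replication). A minimum of 1 UMI gave 1431 and 401 genes in B and 1618 and 227 in T cells, with medians of 2.54, 4.78 and 3.99 in B cells (replication, mitosis, germinal centre) and 2.44 and 3.49 in T cells. Thinning to 1000 UMIs gave 164 and 80 genes in B and 112 and 25 in T cells, medians of 0.82 and 1.53 in B and 1.04 and 1.01 in T cells (replication, mitosis), and D-CAN ratios of −0.62 and −0.28 in B and −1.06 and −0.15 in T cells. A 1.5-fold line gave 1008 and 582 genes in B and 1013 and 227 in T cells, and 1 UMI added to each count gave 51 lower genes in T cells. CPM without immunoglobulin, mitochondrial and ribosomal protein genes gave medians of 3.72 (germinal centre) and 1.21 (mitosis, T).

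No paired analysis was possible because each condition has 1 library. Cycling classes of 23 to 61 cells leave shares with wide intervals, and ratios of genes with few UMIs are limited by counting error. Differences between mice cannot be told apart from treatment.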
